A study of Homo sapiens with 10 samples.

Results

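Epithelial-mesenchymal transition (EMT) is governed by opposing sets of regulators, and 10 of these genes were followed here in MCF10A cells, in G12V cells and in MCF10A cells given Nutlin-3a. The members were the repressors *ZEB1*, *ZEB2*, *SNAI1*, *SNAI2*, *TWIST1* and *TWIST2* and the epithelial regulators *GRHL2*, *OVOL1*, *ESRP1* and *ESRP2*. They were taken by symbol, with no measured value in the rule, from a list drawn up with earlier results of these data known, and all 10 were found among the 26256 genes counted in the untreated cells and among the 55736 genes counted in the Nutlin-3a experiment. MCF10A is an immortalised human mammary epithelial line that does not form tumours, and it was sequenced untreated as 2 parental libraries. G12V cells, also 2 untreated libraries, are MCF10A cells that received the G12V form of HRas by lentivirus together with a GFP vector. They were selected with hygromycin, and the authors report that they first stopped growing and resumed growth after a few weeks. Whether they derive from 1 clone, and whether the parental cells carried an empty vector, is not given in the sources used here. The other groups are parental MCF10A cells treated for 4 h with 10 µM Nutlin-3a, a compound that frees p53 from MDM2, or with its vehicle DMSO, in 3 libraries each. Replicates are described as biological, and all cells grew in medium with EGF, insulin, hydrocortisone, cholera toxin and horse serum.

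In an epithelium, ZEB, SNAIL and TWIST proteins bind E-box sequences and repress genes of cell adhesion such as the E-cadherin gene. GRHL2 and OVOL1 are transcription factors that sustain epithelial genes and hold ZEB1 down, and ESRP1 and ESRP2 are RNA-binding proteins that set epithelial splice forms. MicroRNAs of the miR-200 family and miR-205 act against *ZEB1* and *ZEB2* mRNA, and ZEB proteins in turn repress miR-200 genes. SNAI2 is also part of the normal basal mammary programme, so its presence in MCF10A cells is not by itself a sign of EMT.

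*ZEB1* and *ZEB2* rose in G12V cells while *SNAI2* and *ESRP1* fell, and no member passed the thresholds after Nutlin-3a. Of the 10 members, 8 had enough reads to be tested between G12V and MCF10A cells, and 4 of these were differentially expressed (DE), meaning an adjusted p under 0.05 in edgeR's quasi-likelihood test and an absolute log2 fold change above 0.5. Among all 14376 genes tested 11.0% were DE, 5.01% higher and 5.95% lower in G12V cells. The groups did not overlap for 6 of the 8 tested members, against 54.8% of all tested genes. The median log2 fold change was 0.35 over the 8 members and -0.0011 over all tested genes. Values below are read counts scaled to a common library size (CPM), with library sizes adjusted by TMM, the trimmed mean of M-values. A level of 3 counts corresponds to 0.128 to 0.136 CPM in these libraries. Total counts were 21538593 and 23683975 in the MCF10A libraries and 22070837 and 23318848 in the G12V libraries. In bulk RNA a smaller share of cells expressing a gene and less RNA per cell cannot be told apart.

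**Figure D1:**
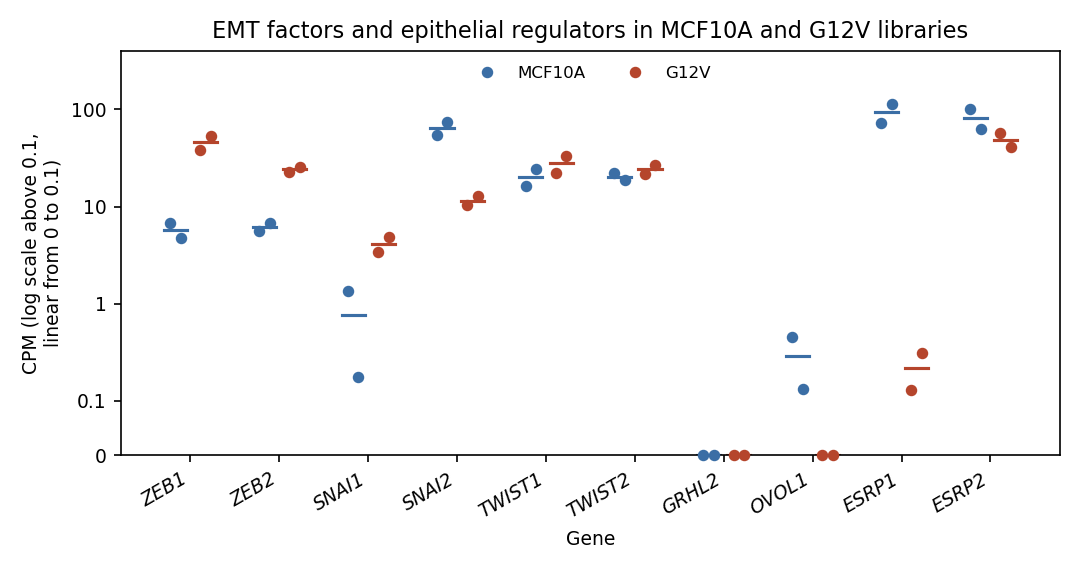
CPM of the 10 members (log scale above 0.1, linear below) in the 2 MCF10A and 2 G12V libraries, with points for libraries and bars for group means. The G12V points lie above the MCF10A points for *ZEB1*, *ZEB2* and *SNAI1* and below them for *SNAI2*, *ESRP1* and *ESRP2*, those of *TWIST1* and *TWIST2* overlap, and *GRHL2* lies at 0 throughout.

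*ZEB1*, a zinc finger and homeodomain repressor on chromosome 10 from 31608101 to 31818742 (hg19, plus strand), had 6.82 and 4.71 CPM in the MCF10A libraries and 37.9 and 53.3 CPM in the G12V libraries. Every G12V value lay well above both MCF10A values. The means were 5.77 ± 1.49 CPM (SD, n = 2) and 45.6 ± 10.9 CPM (SD, n = 2), and the log2 fold change was 2.98 with an SE of 0.31 (edgeR adjusted p = 0.00447). *ZEB2*, its paralog on chromosome 2 from 145141942 to 145277958 on the minus strand, had 5.55 and 6.69 CPM in MCF10A and 22.8 and 25.3 CPM in G12V cells. These groups were also apart, with a smaller change of 1.97 on the log2 scale with an SE of 0.25 (edgeR adjusted p = 0.0078). Over all alternative settings and omissions of a library that were run, the log2 fold change ranged from 2.71 to 3.29 for *ZEB1* and from 1.83 to 2.12 for *ZEB2*. *ZEB1-AS1*, the antisense transcript that starts beside *ZEB1*, had 1.73 and 2.82 CPM in MCF10A and 2.35 and 4.10 CPM in G12V cells and was not DE (edgeR adjusted p = 0.566, log2 fold change 0.50). *ZEB2-AS1*, which overlaps *ZEB2* on the opposite strand, had 0 reads in all 4 libraries.

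In edgeR's test these calls were lost without the first MCF10A library, while their fold changes hardly moved. That fit leaves 1 MCF10A library, which is assumed to vary like the 2 G12V libraries that then set the spread. Without MCF10A replicate 1, 0 genes of the whole table were DE by edgeR, although 2830 still had an unadjusted p under 0.05, and the edgeR adjusted p of the 4 DE members was 0.0823 for *ZEB1*, 0.114 for *ZEB2*, 0.0757 for *SNAI2* and 0.0536 for *ESRP1*. Their log2 fold changes then were 3.29, 1.87, -2.67 and -8.98. DESeq2 called 1489 genes without this library and called these 4 members whichever library was left out, with adjusted p of at most 0.0019. These DESeq2 fits were added after the data were seen.

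The microRNAs that target *ZEB1* and *ZEB2* are shown first by sequence, because their seeds define which sites they can pair with. The mature sequences are from RefSeq on GRCh38.p14, and all 6 names sought were matched. Capitals mark the seed, bases 2 to 8.
hsa-miR-205-5p: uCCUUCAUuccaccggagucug
hsa-miR-200b-3p: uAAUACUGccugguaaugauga
hsa-miR-200c-3p: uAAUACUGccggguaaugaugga
hsa-miR-429: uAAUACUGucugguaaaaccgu
hsa-miR-200a-3p: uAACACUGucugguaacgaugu
hsa-miR-141-3p: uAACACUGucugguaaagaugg
miR-200b, miR-200c and miR-429 share the seed AAUACUG, and miR-200a and miR-141 share AACACUG, so 1 base separates the seeds of the miR-200 family. The seed of miR-205 is unrelated.

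The host transcript of miR-205 fell to near 0 in G12V cells. *MIR205HG*, on chromosome 1 from 209602168 to 209605892, had 231 and 250 CPM in MCF10A and 0.385 and 0.0446 CPM in G12V cells, from 9 and 1 reads in the latter. Its log2 fold change was -10.07 with an SE of 0.54 (edgeR adjusted p = 7.88e-04). *MIR205*, the precursor inside the host, had 68 and 44 reads in MCF10A and 0 in both G12V libraries, at least 19.2-fold lower against 3 counts per library. These 2 entries cover the same stretch, so they are not independent. *MIR200A*, *MIR200B*, *MIR200C* and *MIR429* had 0 reads in all 4 libraries, and *MIR141* had 1 and 6 reads in MCF10A and 0 in G12V cells. *MIR200CHG*, a miR-200 host transcript, was not among the genes counted in these cells, so its level is not known. Libraries of poly(A) RNA count host transcripts and not mature microRNAs, so no level of a mature microRNA follows from these values.

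The 3′ UTRs of *ZEB1* and *ZEB2* were searched for the letters that pair with each seed, and the first match after the stop codon is printed for each, with the match in capitals. The search used the canonical GENCODE v44 transcript of each gene on GRCh37 and the sense strand only, and the heptamers were ATGAAGG for miR-205, CAGTATT for miR-200b, miR-200c and miR-429, and CAGTGTT for miR-200a and miR-141.
*ZEB1* with miR-205 (chr10:31816996-31817018, plus strand): atatgtggtaacatATGAAGGat
*ZEB1* with miR-200b, miR-200c and miR-429 (chr10:31816547-31816569, plus strand): ttgttttatcttatCAGTATTat
*ZEB1* with miR-200a and miR-141 (chr10:31816960-31816982, plus strand): aaaatcatcagaatCAGTGTTtg
*ZEB2* with miR-200b, miR-200c and miR-429 (chr2:145146618-145146640, minus strand): gcactaccatacatCAGTATTtt
*ZEB2* with miR-200a and miR-141 (chr2:145146802-145146824, minus strand): gcaaaaattttgtaCAGTGTTaa
The 3′ UTR of *ZEB1* (2540 bases) held 6 matches of CAGTATT, 3 of CAGTGTT and 1 of ATGAAGG. That of *ZEB2* (5370 bases) held 5, 4 and 0. Among 19076 canonical 3′ UTRs, with a median length of 1068 bases, 16.3% held CAGTATT, 18.3% CAGTGTT and 11.5% ATGAAGG. Per kilobase of 3′ UTR, CAGTATT occurred 2.36 times in *ZEB1*, 0.931 times in *ZEB2* and 0.12 times in all. *SNAI2* and *ESRP1*, which fell in G12V cells, each held 1 match of CAGTATT, or 0.827 and 0.634 per kilobase, *ESRP1* also held 1 of CAGTGTT, and *GRHL2* held 1 of CAGTGTT. None of these heptamers was found in the 3′ UTRs of *SNAI1*, *TWIST1*, *TWIST2*, *OVOL1* and *ESRP2*. A match of letters is a description and not a measured site, and its part in the change of *ZEB1* or *ZEB2* was not tested.

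ZEB and SNAIL proteins bind the E-box CACCTG, and a promoter window of *ZEB1* is printed because it holds 3 of them. RefSeq gives windows of 300 bases, from 250 before to 50 after a start site, and 3 members were matched, with 7 windows for *ZEB1* and 1 each for *ZEB2* and *TWIST2*. The window below is on chr10:31318966-31319265 (GRCh38.p14, plus strand), and capitals mark CACCTG or, from the other strand, CAGGTG.
*ZEB1* promoter: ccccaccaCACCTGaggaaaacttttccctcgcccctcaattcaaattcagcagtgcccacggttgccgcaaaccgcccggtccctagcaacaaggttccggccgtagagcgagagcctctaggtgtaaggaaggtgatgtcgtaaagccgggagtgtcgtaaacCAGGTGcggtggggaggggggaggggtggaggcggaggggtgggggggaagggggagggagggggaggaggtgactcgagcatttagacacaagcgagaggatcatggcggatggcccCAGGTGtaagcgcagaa
These boxes began at -242, -85 and 34 relative to the start site. Of the 7 *ZEB1* windows 2 held such an E-box, and in the windows of *ZEB2* and *TWIST2* these letters were not found. Of 35116 windows of the same length 20.6% held it. Any overlap with other E-box letters was not considered, and binding was not measured in the RNA counts.

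*SNAI2* fell, while its paralog *SNAI1*, likewise a zinc finger repressor, had a positive fold change that did not pass the test. *SNAI2*, on chromosome 8 from 49830239 to 49833999 (hg19, minus strand), had 54.8 and 74.3 CPM in MCF10A and 10.3 and 12.7 CPM in G12V cells. Both G12V values were far below both MCF10A values, and the means were 5.62-fold apart (edgeR adjusted p = 0.0043, log2 fold change -2.49, SE 0.26). *SNAI1*, on chromosome 20 from 48599513 to 48605420, had 30 and 4 reads in MCF10A (1.36 and 0.176 CPM) and 80 and 109 reads in G12V cells (3.42 and 4.86 CPM). The groups did not overlap, but the MCF10A libraries differed strongly from each other, and *SNAI1* was not DE (edgeR adjusted p = 0.117, log2 fold change 2.42, SE 0.79). It was DE with DESeq2 (adjusted p = 0.0229) and without G12V replicate 1 (edgeR adjusted p = 0.0245), a fit with 1 G12V library in which DESeq2 did not call it (DESeq2 adjusted p = 0.0956). Its log2 fold change in edgeR's fits ranged from 1.60 to 4.53 when 1 library was left out.

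The TWIST genes, which encode basic helix-loop-helix factors of mesoderm and connective tissue, were not DE. *TWIST1*, on chromosome 7 from 19155091 to 19157295, had 16.2 and 24.4 CPM in MCF10A and 22.0 and 33.5 CPM in G12V cells, and the groups overlapped (edgeR adjusted p = 0.452, log2 fold change 0.45, SE 0.32). *TWIST2*, on chromosome 2 from 239756673 to 239832244, had 21.9 and 18.7 CPM in MCF10A and 21.7 and 26.5 CPM in G12V cells. These groups overlapped as well (edgeR adjusted p = 0.589, log2 fold change 0.25, SE 0.23).

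Of the epithelial members, *ESRP1* changed most. *ESRP1*, on chromosome 8 from 95653364 to 95719694, had 1575 and 2603 reads in MCF10A (71.6 and 115 CPM) and 3 and 7 reads in G12V cells (0.128 and 0.312 CPM). The G12V libraries were close to the level of 3 counts, which is 0.128 to 0.134 CPM there. The means of 93.1 ± 30.4 CPM (SD, n = 2) and 0.22 ± 0.13 CPM (SD, n = 2) were 423-fold apart, and the log2 fold change was -8.70 with an SE of 0.48 (edgeR adjusted p = 7.88e-04). The 10 reads of both G12V libraries together correspond to 0.218 CPM with an exact 95% Poisson interval of 0.105 to 0.401 CPM, which covers counting error only.

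*ESRP2*, the paralog of *ESRP1*, did not pass the thresholds. It lies on chromosome 16 from 68262450 to 68270136 and had 101 and 62.9 CPM in MCF10A and 56.5 and 40.8 CPM in G12V cells. The groups did not overlap, but the nearest values, 62.9 and 56.5 CPM, were close, and the means were 1.69-fold apart (edgeR adjusted p = 0.175, log2 fold change -0.76, SE 0.29). Its span overlaps *NFATC3* on the opposite strand and *MIR6773*, and since the library kit does not mark strand, reads from the shared stretch cannot be told apart.

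*OVOL1* and *GRHL2* could not be tested. *OVOL1*, a zinc finger factor on chromosome 11 from 65554505 to 65564690, had 10 and 3 reads in MCF10A and 0 in both G12V libraries. Its MCF10A mean was 2.24-fold the level of 3 counts per G12V library, which is not a firm bound at so few reads. *OVOL1* was thus near the limit of detection in the parental cells too, and 1 MCF10A library was itself at 3 counts. *GRHL2*, on chromosome 8 from 102504668 to 102681952, was listed at 0 in all 10 libraries of both experiments, where 3 counts correspond to 0.128 to 0.197 CPM. So were 24.7% of all genes in the untreated cells and 48.5% in the Nutlin-3a experiment in every library of their own table. Whether *GRHL2* was absent or its reads were not counted was not tested.

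**Figure D2:**
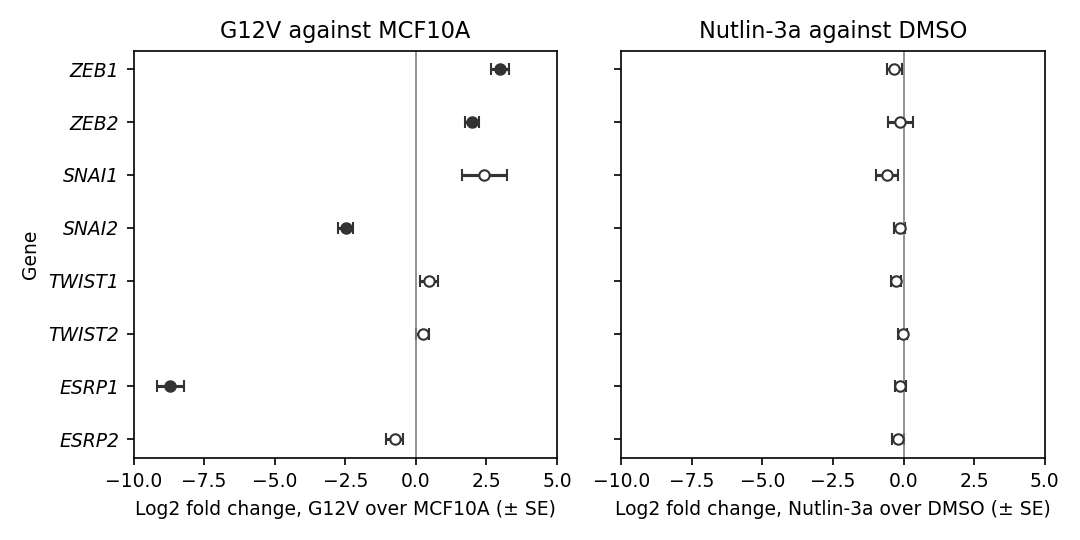
Log2 fold change (points) with its SE (bars) for the 8 tested members in G12V against MCF10A cells (left) and Nutlin-3a against DMSO (right), filled where DE. *ZEB1*, *ZEB2*, *SNAI2* and *ESRP1* are filled on the left, from 2.98 down to -8.70, and all points on the right lie between -0.59 and -0.03.

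Levels of different genes were compared per kilobase of exon, with exon lengths from GENCODE v44 on GRCh37. The same lengths were used for both experiments. The annotation used in counting is not given in the sources used here, so the order between genes depends on these lengths. In MCF10A cells *SNAI2* (29.6 ± 6.31 CPM per kb, SD, n = 2), *ESRP1* (24.1 ± 7.87 CPM per kb) and *ESRP2* (23.7 ± 7.83 CPM per kb) stood highest, with overlapping ranges. *TWIST1* (12.4 ± 3.55 CPM per kb) and *TWIST2* (12.01 ± 1.35 CPM per kb) came next and overlapped each other. *ZEB1* (0.956 ± 0.247 CPM per kb), *ZEB2* (0.462 ± 0.0613 CPM per kb) and *SNAI1* (0.452 ± 0.492 CPM per kb) were lower still. *SNAI1* overlapped both ZEB genes in range, and *ZEB1* lay above *ZEB2* in both libraries.

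The order was different in G12V cells. *TWIST1* (17.02 ± 4.96 CPM per kb, SD, n = 2), *TWIST2* (14.3 ± 2.01 CPM per kb) and *ESRP2* (14.04 ± 3.21 CPM per kb) stood highest and overlapped. Below them, with no overlap between neighbours, came *ZEB1* (7.57 ± 1.80 CPM per kb), *SNAI2* (5.27 ± 0.795 CPM per kb), *SNAI1* (2.43 ± 0.598 CPM per kb), *ZEB2* (1.82 ± 0.136 CPM per kb) and *ESRP1* (0.0569 ± 0.0336 CPM per kb). Among the tested members *ESRP1*, which overlapped *SNAI2* at the top of the order in MCF10A cells, was the lowest in G12V cells, and *ZEB1* stood above *SNAI2* there.

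Ratios of read counts within a library do not depend on the scaling of libraries. There were 8.04 and 15.8 reads of *SNAI2* for each read of *ZEB1* in the MCF10A libraries but 0.271 and 0.238 in the G12V libraries. For each read of *ESRP1* there were 1.42 and 0.549 reads of *ESRP2* in MCF10A but 440 and 131 in G12V cells. Both G12V libraries lay outside the range of every parental library in these ratios, on the side of *ZEB1* and of *ESRP2*. The ratio of *ZEB1* to *ZEB2* reads was 1.23 and 0.704 in MCF10A cells against 1.66 and 2.104 in G12V cells, and that of *TWIST1* to *TWIST2* was 0.739 and 1.30 against 1.02 and 1.26, which overlapped. In the Nutlin-3a experiment the ratio of *SNAI2* to *ZEB1* was 12.5 to 21.9 in DMSO and 16.6 to 21.2 in Nutlin-3a libraries.

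**Figure D3:**
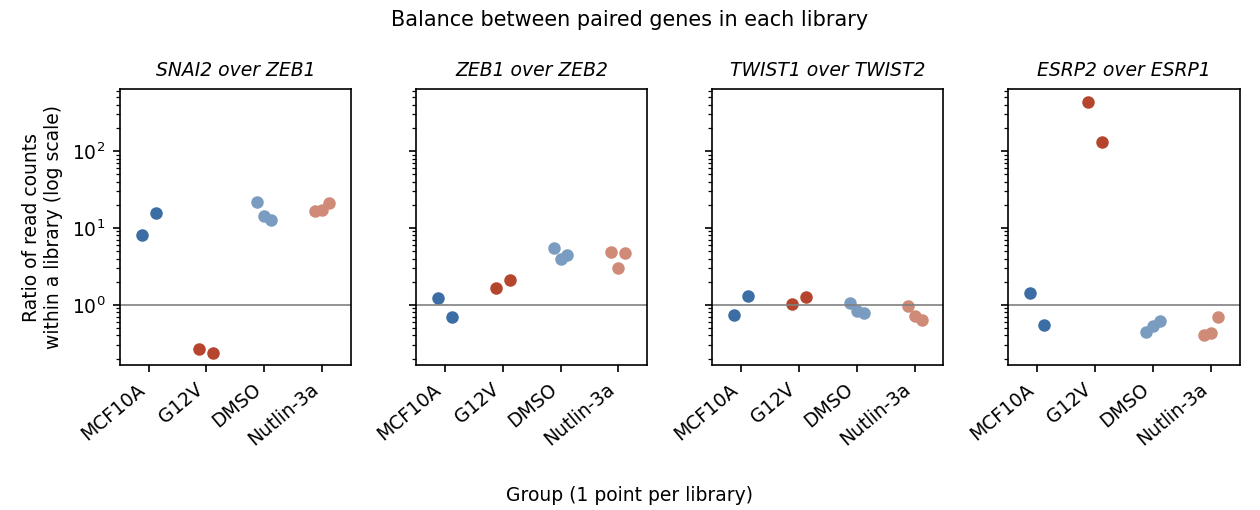
Ratio of the read counts of the named gene pairs within each library (log scale), with 1 point per library in the 4 groups. G12V libraries stand at 0.238 and 0.271 for *SNAI2* over *ZEB1*, where all other libraries exceed 8, and at 131 and 440 for *ESRP2* over *ESRP1*, where all others stay below 1.5.

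Most listed genes that ZEB and SNAIL factors are known to repress were lower in G12V cells. Of 24 such genes tested, 20 were DE and lower, against 5.95% of all tested genes. All 24 had a negative log2 fold change, with a median of -2.83. The list was drawn up with earlier results of these data known, and the part of any repressor in these falls was not tested. *CDH1*, which encodes E-cadherin, had 4390 and 5406 reads in MCF10A and 10 and 12 in the G12V libraries (edgeR adjusted p = 3.37e-04, log2 fold change -8.81). *RAB25*, a small GTPase of epithelial vesicle recycling, was at least 94.3-fold lower, and *CRB3*, a polarity gene, at least 102-fold lower, each against 3 counts per library. *AP1M2*, an adaptor of basolateral sorting, fell by 6.99 on the log2 scale (edgeR adjusted p = 8.66e-04).

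Most other epithelial transcription factors, among them relatives of *GRHL2* and *OVOL1*, fell as well. Of 13 tested, 10 were DE and all 10 were lower, against 5.95% of all tested genes that were DE and lower. The median log2 fold change was -1.51 over the 13. *TP63*, the p63 factor of basal epithelium, had 119 and 214 CPM in MCF10A and 0.214 and 0.0892 CPM in G12V cells (edgeR adjusted p = 7.88e-04, log2 fold change -10.04). *ELF3* (-5.77) and *GRHL3* (-5.63), which act in epithelial differentiation, were also lower on the log2 scale. *GRHL3*, a paralog of *GRHL2*, had 461 and 418 reads in MCF10A and 9 in each G12V library. *OVOL2*, the paralog of *OVOL1*, was named after its values were seen and had 105 and 94 reads in MCF10A and 8 and 5 in G12V cells (edgeR adjusted p = 0.00552, log2 fold change -3.95).

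Other EMT factors and corepressors were DE at shares near the 11.0% of all tested genes. Over the whole table, 3676 of 14376 tested genes had an unadjusted p under 0.05 in edgeR's test. Of 13 other EMT transcription factors tested, 6 had an unadjusted p under 0.05 and 1 was DE, *SOX4*, which was lower (edgeR adjusted p = 0.0216, log2 fold change -1.50), and the median was -0.24. DESeq2 called 3 of these 13, all lower. Of 16 corepressors and regulators of the repressors 1 was DE, *CTBP1*, a corepressor that ZEB1 recruits, at 116 and 120 CPM in MCF10A and 63.6 and 59.4 CPM in G12V cells (edgeR adjusted p = 0.0213, log2 fold change -0.94). Of 9 ligands, receptors and SMADs of TGF-beta, a known inducer of *ZEB1* and *SNAI1*, 0 were DE by edgeR, while 5 had an unadjusted p under 0.05 and DESeq2 called 3 higher and 1 lower. The lowest adjusted p was that of *TGFB3* (edgeR adjusted p = 0.0541, log2 fold change 1.75).

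Mesenchymal genes changed in both directions. Of 17 tested, 4 were DE and higher (*CDH2*, *COL6A1*, *ITGA5* and *SPARC*) and 2 were DE and lower (*POSTN* and *FN1*), with a median of 0.19. Of all tested genes 5.01% were DE and higher and 5.95% DE and lower. *CDH2*, which encodes N-cadherin, rose by 2.01 and *COL6A1*, a collagen VI chain, by 2.004 on the log2 scale. *FN1*, the fibronectin gene, fell by 2.68 on the log2 scale, and *POSTN*, the periostin gene, was at least 64.9-fold lower. Of the 17, 12 had an unadjusted p under 0.05 in edgeR's test, and DESeq2 called 6 higher and 3 lower.

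Among 14 mesenchymal splicing factors and genes whose splicing ESRP proteins regulate, *FGFR2* alone was DE, against 11.0% of all tested genes. A link of its change to that of *ESRP1* was not tested. *FGFR2*, the classic ESRP target, had 11.5 and 10.8 CPM in MCF10A and 1.71 and 1.25 CPM in G12V cells (edgeR adjusted p = 0.00609, log2 fold change -2.91). DESeq2 also called 1 of the 14. Counts per gene do not show splice forms, so the splicing of these genes was not measured.

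**Figure D4:**
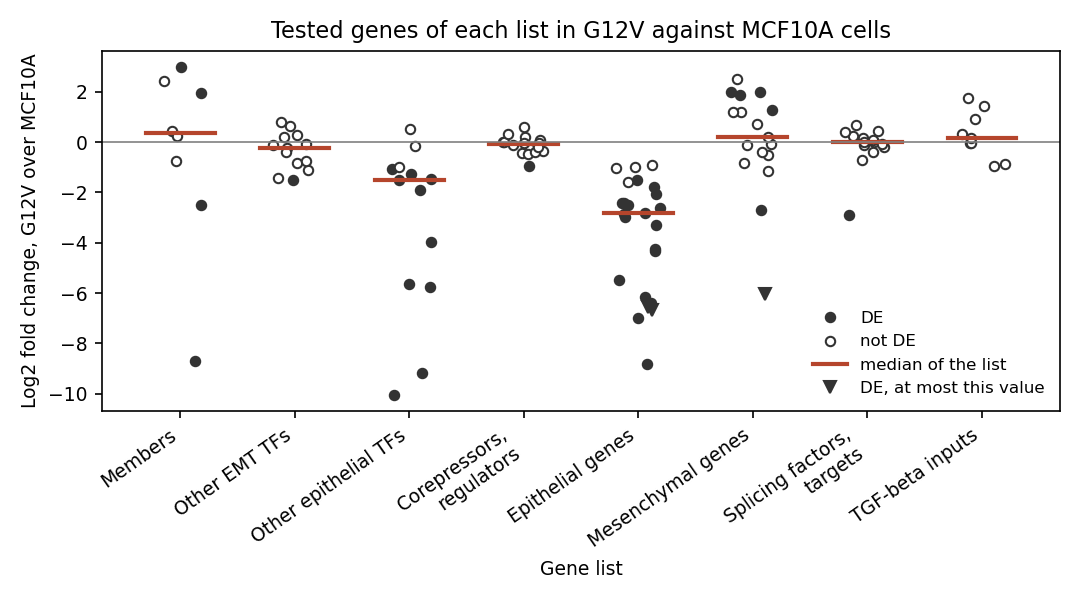
Log2 fold change in G12V against MCF10A cells of the tested genes of 8 lists, filled where DE, with the median of each list as a bar, and triangles where a gene is at most at the value shown because G12V libraries hold at most 3 counts each. The epithelial genes (median -2.83) and other epithelial transcription factors (median -1.51) lie mostly below 0, while the members lie on both sides.

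The labels were checked on *HRAS* and the cell type on marker genes. Some genes stand in more than 1 list, and *TP63* and *CDH1*, named here as markers, are also counted above. *HRAS* had 72.6 and 65.9 CPM in MCF10A and 631 and 515 CPM in G12V cells (log2 fold change 3.05), with reads of the introduced and the endogenous gene counted together. Of 9 tested mammary epithelial markers 7 were DE and lower in G12V cells, led by *KRT14*, *KRT17*, *TP63* and *CDH1*, against 5.95% of all tested genes. The summed level of the list was 7738 to 8931 CPM in MCF10A and 1427 to 1717 CPM in G12V cells. *KRT14* had 2 and 3 reads in the G12V libraries. Of the stromal markers 5 of 9 were tested, with *LUM* higher (28 and 27 reads in G12V cells) and *FAP* lower, and their summed level was 91.9 to 108 CPM in MCF10A and 54.5 to 61.3 CPM in G12V cells. The fibroblast genes *COL1A2*, *COL3A1* and *THY1* had at most 1 read in any of the 4 libraries, while *DCN* had 557 to 1324, *COL1A1* 76 to 254 and *PDGFRB* 9 to 21 reads, and none of these last 3 was DE. Of 7 endothelial markers 3 were tested and 0 were DE by edgeR (2 had an unadjusted p under 0.05, and DESeq2 called 1 higher and 1 lower), at 8.73 to 33.1 CPM in MCF10A and 9.92 to 15.3 CPM in G12V cells. Of 7 blood cell markers 2 were tested and *CD68* was higher, at a summed 30.4 to 49.1 CPM in MCF10A and 59.0 to 112 CPM in G12V cells, while *CD14* had 396 to 888 reads and was not DE and *PTPRC*, the pan-leukocyte gene, had 1 read in all 4 libraries together. The part of these markers in the changes of the members was not tested.

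Nutlin-3a for 4 h left no member past the thresholds. Of the 10 members 8 were tested and 0 were DE by edgeR and by DESeq2. In these fits, which do not use the pairing of the libraries by number, 0 members had an unadjusted p under 0.05. Over the whole table, 463 of 13529 genes had an unadjusted p under 0.05 with edgeR and 417 with DESeq2. Of all 13529 genes tested 0.170% were DE, 0.155% higher and 0.0148% lower, and the groups overlapped for all 8 members, where 8.07% of all tested genes did not. The treatment itself was seen in *CDKN1A*, the p21 gene, at 624, 673 and 666 CPM in DMSO and 2712, 2688 and 3349 CPM in Nutlin-3a libraries (edgeR adjusted p = 5.16e-04, log2 fold change 2.16, SE 0.13). *MDM2*, whose protein Nutlin-3a binds, rose by 2.54 on the log2 scale. With the replicate number as a block, edgeR called 165 genes DE in place of 23. In that fit 0 members were DE, and 2 had an unadjusted p under 0.05, against 1584 of all 13529 tested genes. The fold changes and SEs of the members below are from the fit without the block. Total counts were 15453226 to 17378734.

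**Figure D5:**
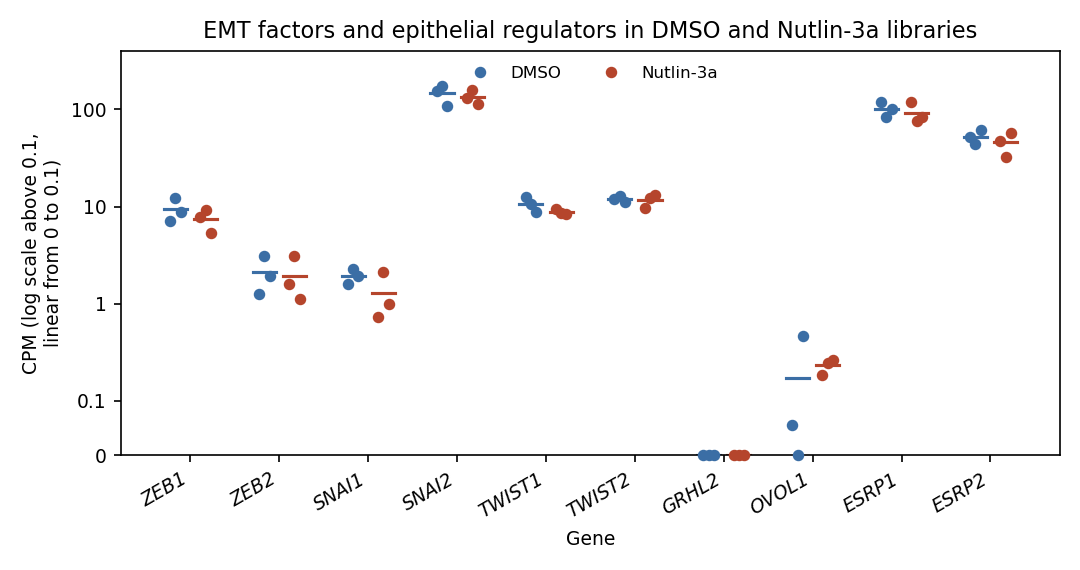
CPM of the 10 members (log scale above 0.1, linear below) in the 3 DMSO and 3 Nutlin-3a libraries, with points for libraries and bars for group means. The groups overlap for every member with reads, and *GRHL2* lies at 0.

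*ZEB1* had 7.08, 12.3 and 8.69 CPM in DMSO and 7.82, 9.24 and 5.33 CPM in Nutlin-3a libraries, a log2 fold change of -0.32 (SE 0.27). *ZEB2* had 1.27, 3.13 and 1.93 CPM in DMSO and 1.60, 3.10 and 1.12 CPM in Nutlin-3a libraries (log2 fold change -0.11, SE 0.45). In both genes the second library of each group was the highest. The SE of *ZEB2*, counted at 17 to 51 reads, was the largest of the 8.

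*SNAI1* had 1.60, 2.27 and 1.93 CPM in DMSO and 0.739, 2.11 and 0.987 CPM in Nutlin-3a libraries. Its log2 fold change of -0.59 (SE 0.40) was the largest in size among the members, but the second Nutlin-3a library lay within the DMSO range. *SNAI2* had 155, 175 and 109 CPM in DMSO and 130, 159 and 113 CPM in Nutlin-3a libraries (log2 fold change -0.13, SE 0.19). *TWIST1* had 12.4, 10.6 and 8.69 CPM in DMSO and 9.48, 8.62 and 8.36 CPM in Nutlin-3a libraries (log2 fold change -0.26, SE 0.18). *TWIST2* had 11.9, 12.9 and 11.1 CPM in DMSO and 9.73, 12.2 and 13.3 CPM in Nutlin-3a libraries, the smallest difference of the 8 (log2 fold change -0.03, SE 0.17). In all of these the ranges overlapped. Within pairs of libraries of the same number, *SNAI1* and *TWIST1* were lower with Nutlin-3a in 3 of 3 pairs, and *SNAI2* and *TWIST2* in 2 of 3.

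*ESRP1* had 118, 82.9 and 100.0 CPM in DMSO and 119, 75.5 and 82.5 CPM in Nutlin-3a libraries (log2 fold change -0.12, SE 0.20). *ESRP2* had 52.3, 43.6 and 61.4 CPM in DMSO and 47.7, 32.3 and 57.5 CPM in Nutlin-3a libraries (log2 fold change -0.20, SE 0.21). For both, the second library of each group was the lowest, and within pairs *ESRP2* was lower with Nutlin-3a in 3 of 3 and *ESRP1* in 2 of 3. *OVOL1* had 1, 0 and 8 reads in DMSO and 3, 4 and 4 reads in Nutlin-3a libraries and was not tested. The adjusted p of all 8 tested members was 0.9997 in edgeR's quasi-likelihood test. With the replicate number as a block, *SNAI1* and *ESRP2* had an unadjusted p under 0.05 but edgeR adjusted p of 0.392 and 0.369, and no member was called. All 8 log2 fold changes were negative, with a median of -0.16 against 0.0066 over all tested genes, but 5 of the 8 changed sign when 1 library, and so part of a pair, was left out.

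Apart from the p53 response genes, of which 4 of 4 were DE and higher, no gene of the lists was DE in edgeR's test without the block after Nutlin-3a. Of 23 epithelial genes that EMT factors repress, 17 mesenchymal genes and 12 other epithelial transcription factors, 0 were DE by edgeR or DESeq2, and 0 had an unadjusted p under 0.05 in edgeR's test. The same held for 14 splicing genes and 9 TGF-beta genes, except that 1 gene of each had an unadjusted p under 0.05 with DESeq2. With the replicate number as a block 0 of these were DE either. In that fit 1584 of all 13529 tested genes had an unadjusted p under 0.05. Among these lists they were 7 of the 12 epithelial transcription factors, 3 of the 23 epithelial genes and 1 of the 17 mesenchymal genes. So were 2 of the 14 splicing genes and 2 of the 9 TGF-beta genes. The lowest edgeR adjusted p was 0.051 among the 12 factors and 0.0805 among the 9 TGF-beta genes. *MIR205HG* had 174, 181 and 200.1 CPM in DMSO and 160, 174 and 245 CPM in Nutlin-3a libraries (log2 fold change 0.06). Of 13 other EMT factors 0 were DE, with 3 at an unadjusted p under 0.05 and 0 called by DESeq2, but with the replicate number as a block *FOXC2* was DE and lower (log2 fold change -0.66, adjusted p = 0.0277 in that edgeR fit). Of 16 corepressors and regulators 0 were DE, with 3 at an unadjusted p under 0.05, but *FBXW7* was DE and higher with DESeq2 (log2 fold change 0.75, adjusted p = 0.00859) and with the block (0.77, adjusted p = 0.00278 in that edgeR fit). *FBXW7*, a ubiquitin ligase subunit, had 28.6, 41.4 and 44.5 CPM in DMSO and 62.5, 66.2 and 64.3 CPM in Nutlin-3a libraries, and its groups did not overlap. *FOXC2* and *FBXW7* were named after their values were seen.

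The parental line was sequenced in both experiments, on different annotations and with separate normalization, so its levels are given side by side and without a test. Per kilobase of exon the DMSO libraries had *SNAI2* highest (67.2 ± 15.6 CPM per kb, SD, n = 3), then *ESRP1* (26.0 ± 4.58 CPM per kb) and *ESRP2* (15.1 ± 2.57 CPM per kb), with no overlap between these neighbours. *TWIST2* (7.10 ± 0.536 CPM per kb) and *TWIST1* (6.48 ± 1.13 CPM per kb) overlapped each other, as did *ZEB1* (1.55 ± 0.446 CPM per kb) and *SNAI1* (1.13 ± 0.195 CPM per kb), and *ZEB2* (0.159 ± 0.0711 CPM per kb) was lowest among the tested members. *SNAI2*, *ESRP1* and *ESRP2* were thus the highest members in the parental line in both experiments, and *ZEB1*, *ZEB2* and *SNAI1* were the lowest among those tested. In DMSO libraries *ZEB1* had 3.94 to 5.57 reads for each read of *ZEB2*, above the 0.704 and 1.23 of the untreated parental libraries. The gene models differed, and *TWIST1* spanned 2205 bases in the untreated cells and 95935 bases in the Nutlin-3a experiment.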

How the data were processed

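Poly(A) RNA of 10 libraries in 4 groups was sequenced. The authors aligned the reads to hg19 with TopHat and counted them per gene with HTSeq, as the submitters' processing notes list, and deposited raw counts per gene, without normalization. The gene annotation, strand setting and treatment of overlapping genes in counting are not given in the sources used here. The library kit (NEBNext Ultra) does not mark strand. Each table was analysed on its own.

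Counts were filtered by filterByExpr, scaled by TMM and tested in edgeR 4.0.16 (R 4.3.3, limma 3.58.1) by quasi-likelihood F-test over all genes, with Benjamini-Hochberg adjustment. A gene was DE at an adjusted p below 0.05 with a log2 fold change beyond 0.5 in either direction. A prior count of 0.125 was used for fold changes, and each SE was derived from the fold change and its F statistic. A fold against a group with at most 3 counts in each library is a bound against 3 counts per library. Since the reads carry no molecular identifiers, intervals and bounds cover counting error only. An exact permutation test of so few libraries cannot reach 0.05, so p-values come from the fit over all genes.

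The members and all lists were chosen with earlier results of these data known. Named genes are every member, of each list up to 4 DE genes with the largest fold change and a mean of at least 1 CPM, tested antisense partners, *CDKN1A*, *MDM2* and *HRAS*. A result that this rule would name is not reported here. Of the antisense and neighbouring partners, 3 were tested in G12V and 2 in Nutlin-3a, and 0 were DE by edgeR or DESeq2 (0 with an unadjusted p under 0.05). Of the p53 response genes 4 of 4 were DE and higher after Nutlin-3a, and in G12V cells 0 of 4 were DE by edgeR (1 with an unadjusted p under 0.05) and 1 by DESeq2.

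The labels number the DMSO and Nutlin-3a libraries alike, and libraries with a shared number deviated together from their group means (correlations 0.61, 0.58 and 0.62, against -0.46 to -0.19 for other pairs), so the numbers pair these libraries.

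In simulated counts 21% of genes changed by 1 and 75% of those changed by 2 on the log2 scale were recovered in the G12V design (14104 genes, 3 false calls), and 61% and 88% in the Nutlin-3a design (13351 genes, 20 false calls). Alternatives were DESeq2 1.42.0, other scalings and filters, a prior count of 2, the replicate block and the omission of each library, also with DESeq2 in G12V (added after the data were seen). Sequences are from RefSeq and GENCODE v44. Python 3.11.15, scipy 1.17.1 and matplotlib 3.10.9 were used.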

Additional observations from a re-analysis of the deposited data

How the results depend on the processing

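The count of DE members in G12V cells was 4 under 6 alternatives that changed the scaling, filter or prior count, 5 with DESeq2, and 0 to 5 when 1 library was left out, with 0 without MCF10A replicate 1. A fit without 1 library leaves 1 in its group, assumed to vary like the other group. DESeq2, with each library left out in turn, called 4 to 5 members and 1064 to 1602 genes. The count of DE genes over the whole table was 1402 to 2307 under those settings and 0 to 2129 with a library left out. No member changed direction in G12V cells under any of these. *SNAI1* was called with DESeq2, with all libraries and without MCF10A replicate 1, and by edgeR without G12V replicate 1 and with the replicate block, and *ESRP2* with the block alone.

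The G12V and MCF10A libraries share only replicate numbers, and deviations correlated at 0.459 between those of the same number. Under a replicate block the count of DE genes was 4158, 2071 higher and 2087 lower, and 6 members were called (*SNAI1* at an adjusted p of 0.006 and *ESRP2* at 0.00167 in that edgeR fit).

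After Nutlin-3a 0 members were DE under all 14 alternatives, although 2 had an unadjusted p under 0.05 with the block. The count of DE genes was 23 and moved to 91 with DESeq2 (62 higher, 29 lower), 99 without a filter (71 higher, 28 lower) and 165 with the replicate block (95 higher, 70 lower), and was 7 to 11 with a library left out. With the block no call of a member changed, at adjusted p of 0.369 to 0.947. Leaving out 1 library turned the sign of *ZEB2* (-0.62 to 0.28), *SNAI2* (-0.30 to 0.0221), *TWIST2* (-0.13 to 0.0890), *ESRP1* (-0.35 to 0.0137) and *ESRP2* (-0.39 to 0.00107), none of them DE.

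*SNAI1* rested on at most 109 reads and on MCF10A libraries that differed from each other, and *OVOL1* and *GRHL2* were at or near 0, so these counts limit what can be said of them. The cause of the edgeR calls lost without MCF10A replicate 1 was not tested.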
